A study of Saccharomyces cerevisiae with 8 samples.

Results

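The genes described here are 10 genes of the pentose phosphate pathway of the yeast Saccharomyces cerevisiae, ZWF1 (YNL241C), SOL3 (YHR163W), SOL4 (YGR248W), GND1 (YHR183W), GND2 (YGR256W), RKI1 (YOR095C), TKL1 (YPR074C), TKL2 (YBR117C), TAL1 (YLR354C) and NQM1 (YGR043C). They were chosen by name, and their probes were found by the open reading frame name in the scanner files. All 10 were among the 5816 genes tested, each with 1 probe on 2 spots of the array. Cultures of BY4743, a diploid laboratory strain, were shaken for 3 h at 30 °C in YPD, a rich glucose medium. The groups are 4 arrays from cultures with 40 g/l isopropanol and 4 arrays from cultures without it (control) after the same time. The question is how transcript levels differ with isopropanol. A 20 g/l culture named in the design was not analysed here. The descriptions of the isopropanol samples give the dose in mg/l, while their other labels and the series design give 40 g/l.

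The pentose phosphate pathway oxidises glucose 6-phosphate and returns its carbon to glycolysis. Its oxidative branch makes NADPH, the reductant of biosynthesis and of antioxidant enzymes, and ends in ribulose 5-phosphate. Its non-oxidative branch interconverts sugar phosphates and supplies ribose 5-phosphate for nucleotides and erythrose 4-phosphate for aromatic amino acids. Budding yeast carries duplicate genes for several steps, with a main isoform expressed in growing cells (GND1, TKL1, TAL1, SOL3) and a minor paralog known for expression in stressed or glucose-starved cells (GND2, TKL2, NQM1, SOL4).

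The 75th percentile of processed signal was 1801 to 2449 intensity units on isopropanol arrays and 1309 to 1675 on control arrays. Of the yeast spots, 94.0 to 95.9% were well above background on isopropanol arrays and 92.3 to 93.8% on control arrays. Spike-in RNAs set isopropanol replicate 1 apart. On that array they lay at -1.76 (log2 relative to the 75th percentile), while isopropanol replicates 2 to 4 held -0.24 to 0.00082 and control arrays 0.40 to 0.99. All isopropanol arrays shared one slide and all control arrays another, so an effect of the slide and one of isopropanol cannot be told apart. Control replicate 3 had a scan of its own. The design mentions at least 3 independent experiments per concentration, but the labels tie no array to one of them, so p-values reflect array-to-array spread that may be technical in part. URA3 and LEU2, which BY4743 lacks, were above background in 0 of 16 and 1 of 16 spot readings. RNA was taken from whole cultures, so a change in every cell and a change in some of the cells cannot be told apart.

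In isopropanol the minor paralogs NQM1 and GND2 rose, by 3.06-fold and 2.15-fold. The transaldolase gene TAL1 and the first gene of the pathway, ZWF1, rose by smaller amounts. RKI1 and SOL3 fell, except on a scale set by the spike-ins, where both had positive changes that did not pass. GND1, TKL1 and TKL2 passed the test with small changes whose direction depended on how arrays were scaled, and SOL4 did not pass it. In all, 9 of the 10 genes passed at an adjusted p of 0.05 (limma, adjusted over all 5816 genes), 5 higher and 4 lower. Among all genes tested 77.8% passed, 47.6% higher and 30.1% lower, so that count is near the background. The median log2 change was 0.08 over the 10 genes and 0.11 over all genes.

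**Figure D1:**
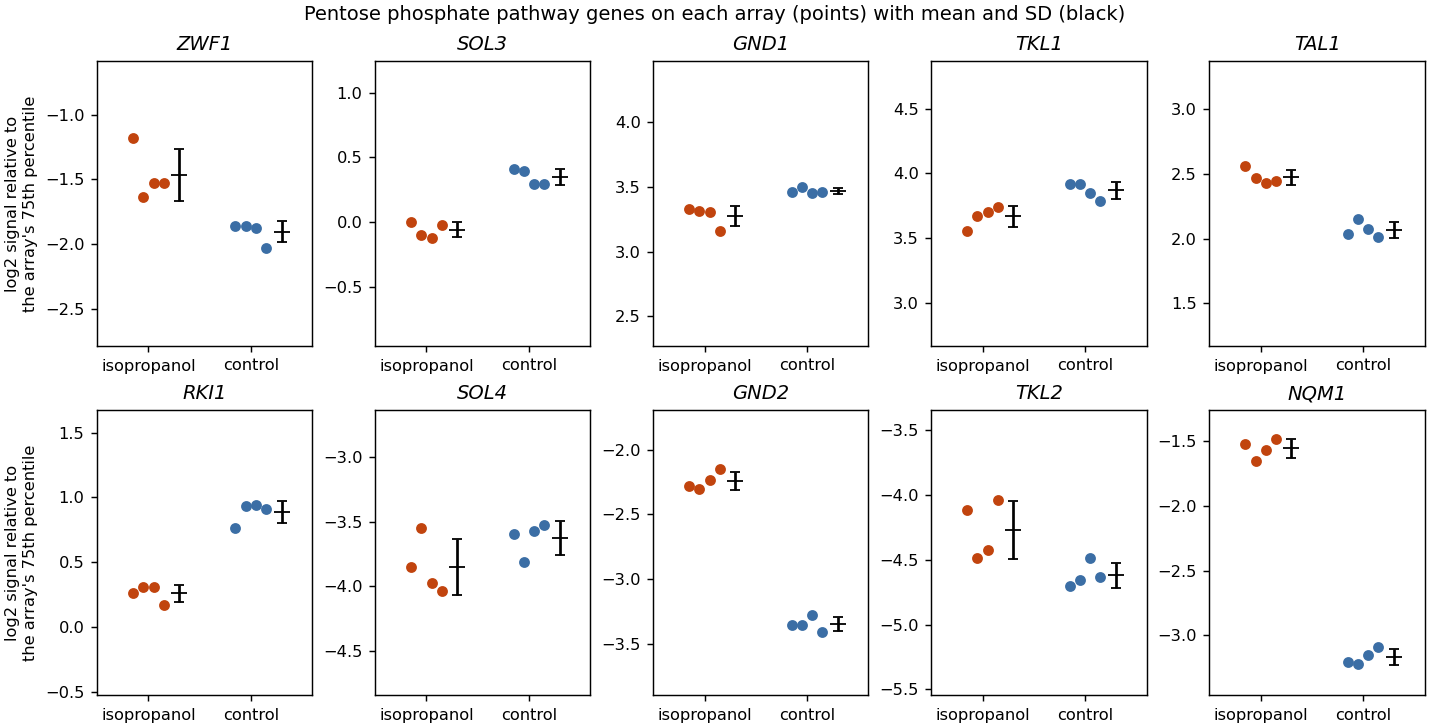
Log2 signal of each of the 10 genes relative to the array's 75th percentile (vertical axes, all spanning the same range) on the isopropanol arrays and the control arrays (points, n = 4 each), with mean and SD in black. The isopropanol arrays lie above every control array for NQM1, GND2, TAL1 and ZWF1 and below every control array for RKI1, SOL3, GND1 and TKL1, while the groups overlap for SOL4 and TKL2.

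All 16 spot readings of each gene were well above background, 0 were flagged and 0 were saturated. The dimmest reading, of TKL2, was 2.76 times its local background. Duplicate spots of a gene differed by at most 0.45 (log2). Values per array below are log2 signal relative to the array's 75th percentile, given in replicate order, and changes are isopropanol minus control. The groups did not overlap for 8 of the 10 genes, against 73.2% of all genes tested.

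In the oxidative branch, ZWF1 encodes glucose 6-phosphate dehydrogenase, the NADPH-forming entry step. It had -1.18, -1.64, -1.53 and -1.53 on the isopropanol arrays, against -1.86, -1.86, -1.87 and -2.03 on the control arrays. Every isopropanol array was above every control array, and replicate 1, the array with low spike-ins, was the highest. The change was 0.44 (SE 0.09; limma adjusted p = 0.00124), or 1.35-fold, and 0.34 (adjusted p = 0.000537) without isopropanol replicate 1. With normexp background correction it was 0.24 and did not pass (adjusted p = 0.179). With control replicate 2 left out as well, the normexp change was 0.33 and passed (limma adjusted p = 0.0259).

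SOL3 and SOL4 encode 6-phosphogluconolactonases, the enzymes of the next step. SOL3 had 0.0023, -0.10, -0.12 and -0.02 on isopropanol arrays, against 0.41, 0.39, 0.29 and 0.29 on control arrays. It fell by 0.40 (SE 0.05; limma adjusted p = 2.06e-05), which is 1.32-fold, with no overlap between groups. SOL4 had -3.85, -3.55, -3.97 and -4.04 on isopropanol arrays, against -3.59, -3.81, -3.57 and -3.52 on control arrays. Its groups overlapped, since isopropanol replicate 2 lay within the control range. Its change of -0.23 (SE 0.10; 95% interval -0.46 to 0.0056) did not pass (limma adjusted p = 0.0688). It did pass, as lower, without isopropanol replicate 2 (-0.33, adjusted p = 0.00345) or without control replicate 2 (-0.29, adjusted p = 0.0318).

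GND1 and GND2 encode 6-phosphogluconate dehydrogenase, the second NADPH-forming enzyme of the pathway. GND2 had -2.28, -2.31, -2.23 and -2.15 on isopropanol arrays, against -3.36, -3.35, -3.28 and -3.41 on control arrays. The groups were far apart compared with their SDs of 0.07 and 0.05, and the change was 1.11 (SE 0.05; limma adjusted p = 1.57e-08). GND1 had 3.33, 3.31, 3.31 and 3.16 on isopropanol arrays, against 3.46, 3.50, 3.45 and 3.46 on control arrays. All isopropanol arrays were slightly lower, with a change of -0.19 (SE 0.05; limma adjusted p = 0.00317). After quantile normalization the change of GND1 was 0.06 and did not pass (adjusted p = 0.347).

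In the non-oxidative branch, RKI1 encodes ribose 5-phosphate isomerase, which forms ribose 5-phosphate from ribulose 5-phosphate. It had 0.26, 0.31, 0.31 and 0.17 on isopropanol arrays, against 0.76, 0.93, 0.95 and 0.91 on control arrays. The groups lay well apart, with every isopropanol array below every control array. The change was -0.63 (SE 0.05; limma adjusted p = 1.95e-06), or 1.54-fold lower, the strongest decrease among the 10 genes on the 75th percentile scale.

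TKL1 and TKL2 encode transketolases, which move carbon units between sugar phosphates. TKL1 had 3.56, 3.67, 3.70 and 3.74 on isopropanol arrays, against 3.92, 3.92, 3.85 and 3.78 on control arrays. Its groups did not overlap, but the nearest pair of arrays differed little, and the change was -0.20 (SE 0.05; limma adjusted p = 0.00466). After quantile normalization TKL1 passed in the other direction, at 0.18 (adjusted p = 0.0208). TKL2 had -4.11, -4.49, -4.42 and -4.04 on isopropanol arrays, against -4.70, -4.66, -4.49 and -4.64 on control arrays. Isopropanol replicates 1 and 4 were clearly above every control array, replicate 3 (-4.42) was slightly above them, and replicate 2 met control replicate 3. The change of TKL2 was 0.35 (SE 0.10; limma adjusted p = 0.00806), or 1.28-fold. It did not pass after median centring (0.20, adjusted p = 0.0798), and was -0.17 after quantile normalization and -0.47 with normexp, without passing either (adjusted p = 0.115 and 0.299).

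TAL1 encodes the main transaldolase, and NQM1 a transaldolase paralog first named for its role in non-quiescent cells. NQM1 had -1.52, -1.65, -1.57 and -1.48 on isopropanol arrays, against -3.21, -3.22, -3.15 and -3.09 on control arrays. Its change of 1.61 (SE 0.05; limma adjusted p = 1.69e-09) ranked 149 from the top of the 5816 genes, and that of GND2 ranked 356. TAL1 had 2.56, 2.47, 2.43 and 2.44 on isopropanol arrays, against 2.04, 2.15, 2.08 and 2.01 on control arrays. It rose by 0.41 (SE 0.05; limma adjusted p = 1.84e-05), or 1.33-fold, the one main isoform of the 4 that was higher on the 75th percentile scale. Both transaldolase genes thus rose, with no overlap between groups for either.

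The minor paralog was set against the main isoform as the log2 ratio of the pair on each array, which no scaling by a single factor per array can alter. This compares changes, not levels, since signals of different probes are not on a common scale. Probe sequences were not used here, and signal shared between paralogs was not tested. Exact two-sided permutation tests over the 8 arrays were run for 4 pairs, where the smallest p the design allows is 0.0286.

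The GND2 over GND1 ratio, relative to the control mean, was 1.20, 1.20, 1.28 and 1.51 on isopropanol arrays and between -0.05 and 0.09 on control arrays. The difference of 1.30 (SE 0.08) is a 2.46-fold shift (exact permutation p = 0.0286, and 0.0381 adjusted over the 4 pairs). The NQM1 over TAL1 ratio was 1.16, 1.12, 1.24 and 1.31 on isopropanol arrays and between -0.14 and 0.14 on control arrays. The difference of 1.21 (SE 0.07) is a 2.31-fold shift, with the same exact p of 0.0286 (0.0381 adjusted). In both pairs the minor paralog gained on the main isoform on 4 of 4 isopropanol arrays. With normexp the differences were 0.74 and 0.56 and did not pass (exact permutation p = 0.0571 and 0.114), and without control replicate 2 they were 0.96 and 0.79 (exact permutation p = 0.0286 each).

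The TKL2 over TKL1 ratio was 0.82, 0.33, 0.36 and 0.71 on isopropanol arrays and between -0.13 and 0.15 on control arrays. The difference was 0.56 (SE 0.14; exact permutation p = 0.0286, 0.0381 adjusted), and without control replicate 1 it was 0.51 and did not pass (exact p = 0.0571). It turned to -0.35 after quantile normalization and -0.32 with normexp. With normexp without control replicate 2 the TKL difference was 0.040 and did not pass (exact permutation p = 0.886). The SOL4 over SOL3 ratio was 0.12, 0.52, 0.12 and -0.05 on isopropanol arrays and between -0.23 and 0.15 on control arrays. These overlapped, with a difference of 0.18 (SE 0.15; 95% interval -0.19 to 0.54; exact permutation p = 0.4, adjusted 0.4). On the 75th percentile scale the lactonase pair was thus the one of the 4 in which no difference between paralogs was detected. After quantile normalization the TKL pair did not pass either (p = 0.0857 by the exact permutation test), and with normexp none of the 4 passed.

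The pairs were also compared with each other, in 6 contrasts chosen after the values had been seen. The GND pair shifted by 1.12 (SE 0.20) more than the SOL pair, and the transaldolase pair by 1.03 (SE 0.16) more (exact permutation p = 0.0286 each, 0.0429 adjusted over the 6). The GND pair shifted by 0.74 (SE 0.13) more than the TKL pair, and the TKL pair by 0.65 (SE 0.13) less than the transaldolase pair (each p = 0.0286 by the exact permutation test, 0.0429 adjusted). No difference was detected between the GND and transaldolase pairs (0.09, SE 0.07; exact permutation p = 0.314, adjusted 0.314), though with normexp this contrast passed at 0.18 (exact permutation p = 0.0286). The TKL and SOL pairs did not pass either (0.38, SE 0.23; exact permutation p = 0.2, adjusted 0.24), but passed without isopropanol replicate 2 (0.57, exact permutation p = 0.0286). Each contrast of the TKL pair with the GND or transaldolase pair missed the threshold when any 1 control array was left out, and that of the transaldolase and SOL pairs without control replicate 3 (exact permutation p = 0.0571 in each case).

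**Figure D2:**
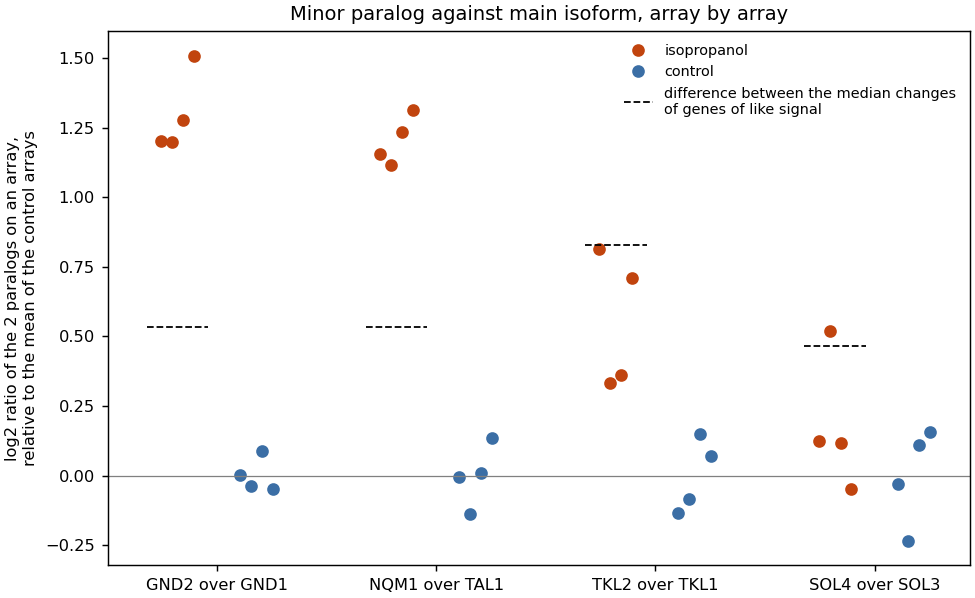
Log2 ratio of the minor paralog over the main isoform on each array (vertical axis), relative to the mean of the control arrays, for the 4 pairs, with isopropanol arrays left of control arrays and dashed lines at the difference between the median changes of genes of like signal. The isopropanol arrays lie above 1.1 for GND2 over GND1 and NQM1 over TAL1, between 0.33 and 0.82 for TKL2 over TKL1, and overlap the control arrays for SOL4 over SOL3, where isopropanol replicate 2 is highest at 0.52.

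On this scale changes followed signal across all genes, and the minor paralogs have dimmer probes than the main isoforms. As a description, all genes were divided by mean signal into 10 classes of like size, and each gene was ranked within its class. NQM1 and GND2 were in a class whose median change was 0.25, and they ranked 7 and 30 from the top of its 581 genes. TAL1, GND1 and TKL1 were in the brightest class, with a median of -0.29. There TAL1 ranked 55 from the top of 582 genes, while GND1 and TKL1 ranked 252 and 256, near the middle. RKI1 ranked 63 from the bottom of the 582 genes of its class, SOL3 111 from the bottom of 581, and ZWF1 126 from the top of 582.

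TKL2 lay in the dimmest class, with a median of 0.54, and its change of 0.35 was below that median. SOL4 lay in the next class, with a median of 0.42, and ranked 63 from the bottom of 582 genes. The medians of the classes alone differ by 0.53 for the GND and transaldolase pairs, 0.83 for the TKL pair and 0.47 for the SOL pair. The measured shifts of 1.30 and 1.21 exceeded those values, and those of 0.56 and 0.18 were below them.

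**Figure D3:**
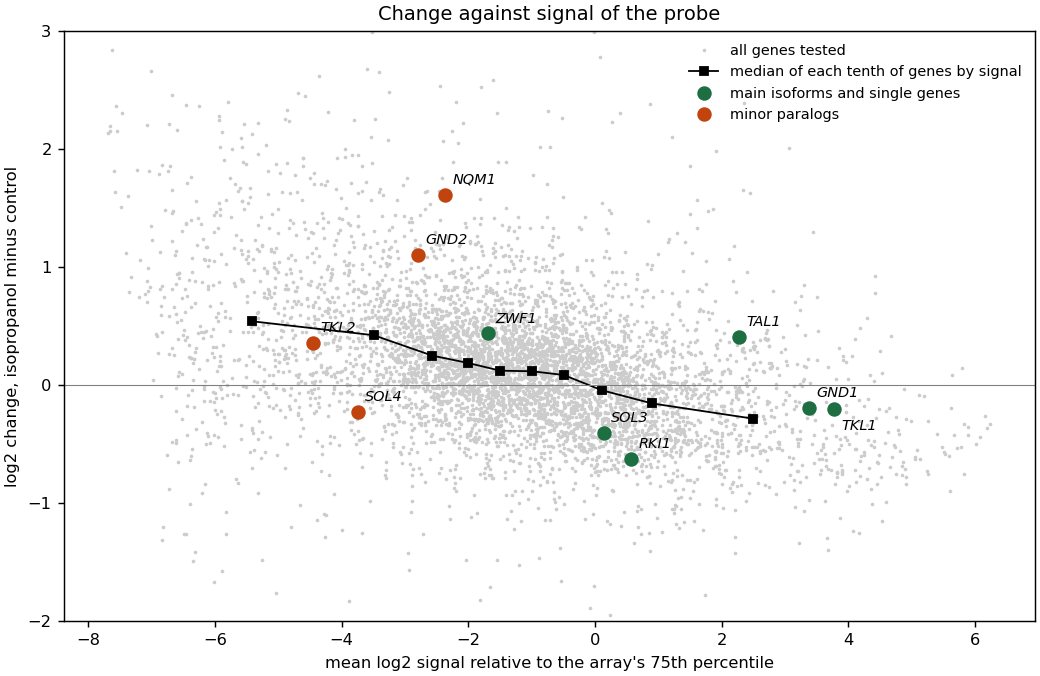
Log2 change (isopropanol minus control, vertical axis) against mean log2 signal relative to the array's 75th percentile (horizontal axis) for all 5816 genes tested (grey; 37 lie outside the drawn range), with the median of each of 10 classes of genes by signal (black squares) and the 10 pathway genes. NQM1 and GND2 lie far above the line of medians, GND1 and TKL1 near it, and SOL4, SOL3 and RKI1 below it.

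The scaling of the arrays moved the median of all genes, and quantile normalization and normexp also moved genes against each other. Normexp is a background correction of the median signal by the local background, scaled here to the same 75th percentile. The median change of all genes was 0.11 with the 75th percentile, and with the other settings it was -0.02 (quantile), -0.04 (median) and -0.08 (normexp). NQM1 and TAL1 were higher, and RKI1 and SOL3 lower, with all of these. NQM1 changed by 1.61 with the 75th percentile, 1.46 with the median, 1.37 with quantiles and 1.02 with normexp. GND2 changed by 1.11, 0.95, 0.79 and 0.50 in the same order, and with normexp it did not pass (adjusted p = 0.0665). Whether GND2 passed with normexp depended on 1 array. The highest local background of any spot on control replicate 2 was 14586 intensity units, against 45 to 1121 on the other arrays. The median local background of control replicate 2 was 25, within the 23 to 26.5 of the other arrays. Without that array the normexp change of GND2 was 0.70 and passed (limma adjusted p = 6.33e-05). It was still below the 0.79 to 1.11 found with quantiles, the median and the 75th percentile, and the cause was not tested.

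Scaled on 5 spike-in probes, the median change of all genes was 1.27, and 0.86 without isopropanol replicate 1. On that scale all 10 genes lay above 0, and RKI1 (0.54) and SOL3 (0.76) did not pass. Relative to the median of all genes they were still below it, and NQM1 and GND2 above it. Scaling by spike-ins adds the same amount to every gene, and every decrease named here other than that of ALD6 lay above 0 on it. Without isopropanol replicate 1, PGM1 (-0.29) and HXK2 (-0.02) also lay below 0 on that scale.

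**Figure D4:**
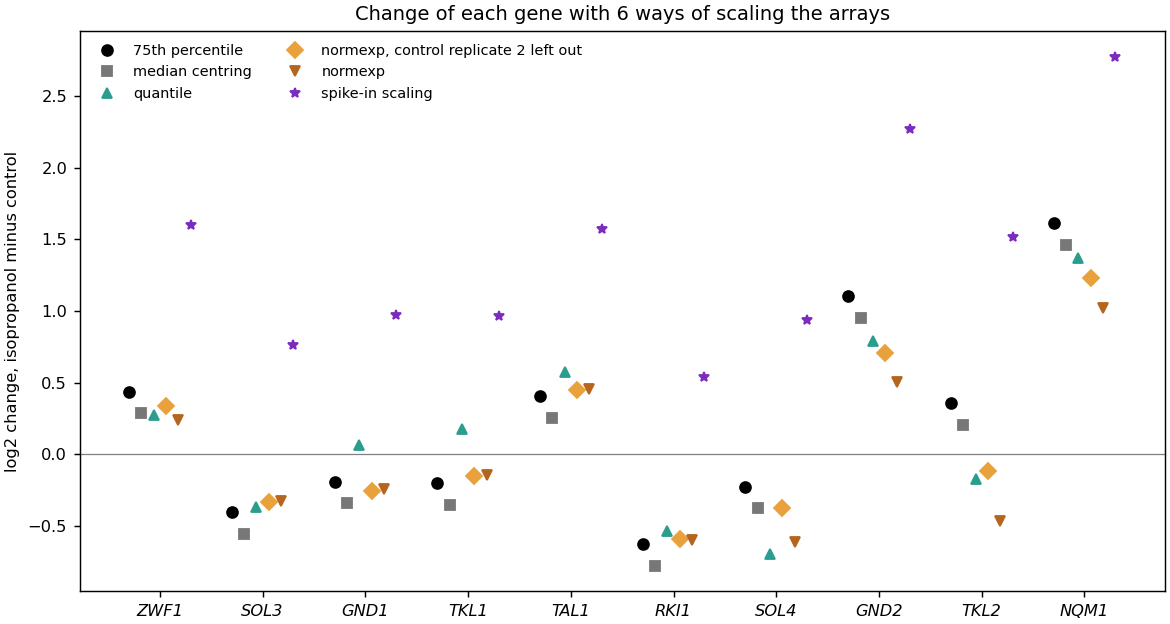
Log2 change of each gene (isopropanol minus control, vertical axis) with 6 ways of processing the arrays, of which normexp is a background correction rather than a scaling. NQM1, GND2, TAL1 and ZWF1 stay above 0 and RKI1 and SOL3 below 0 on all but the spike-in scale, where all genes are higher, while TKL2, TKL1 and GND1 change sign.

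Around the pathway, 19 of 20 neighbouring genes were tested, and 7 rose, 10 fell and 2 did not pass, against 47.6% higher and 30.1% lower among all genes. The list median was -0.20, against 0.11 over all genes, and it was 0.01 after quantile normalization. SOR1, a sorbitol dehydrogenase gene, was well above background on 3 isopropanol arrays and 0 control arrays and was not tested. Hexose phosphorylation genes moved in both directions. HXK1 and GLK1, for a hexokinase and glucokinase known to be repressed by glucose, rose by 1.34 (SE 0.10; limma adjusted p = 9.92e-07) and 1.06 (SE 0.08; 6.13e-07 adjusted). HXK2, the main hexokinase of cells growing on glucose, had a change of -0.77 (SE 0.04; limma adjusted p = 2.52e-08).

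Genes that lead to and use pentose phosphates also split. XKS1, the xylulokinase gene, rose by 0.74 (SE 0.09; limma adjusted p = 2.02e-05), though with normexp, at 0.40, it did not pass (adjusted p = 0.0573). It passed with normexp without control replicate 2 (0.51, limma adjusted p = 0.00226). SOL1, of the SOL family but linked to tRNA, had a change of -0.70 (SE 0.07; adjusted p = 6.63e-06). RPE1, for ribulose 5-phosphate epimerase, the counterpart of RKI1 at the branch point, was lower on every isopropanol array, with a change of -0.60 (SE 0.11; limma adjusted p = 0.000725). All 5 PRS genes, for enzymes that turn ribose 5-phosphate into phosphoribosyl pyrophosphate for nucleotides, were lower, against 30.1% of all genes tested. Their changes ran from -0.51 for PRS3 to -0.20 for PRS1, and PRS1 did not pass after quantile normalization (0.01), where the other 4 were still lower. With normexp neither PRS1 (0.05) nor PRS5 (-0.20) passed, and without control replicate 2 PRS5 did (-0.27) and PRS1 did not (-0.02). The classes of like signal had median changes of -0.29 for PRS1, -0.05 for PRS2 and PRS3, and -0.16 for PRS4 and PRS5. PRS1 lay above its class median and the other 4 below theirs. RPE1 and the PRS genes were singled out after their values had been seen.

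Of 9 other genes of NADPH supply, 5 rose, 1 fell and 3 did not pass, against 47.6% higher and 30.1% lower among all genes. The list median of 0.55 was 0.30 after quantile normalization, where 3 were lower, and -0.34 with normexp (-0.06 without control replicate 2). ALD6, for the cytosolic NADPH-forming acetaldehyde dehydrogenase, had -0.12, -0.10, -0.09 and -0.76 on isopropanol arrays, against 2.64, 2.69, 2.58 and 2.60 on control arrays. It was 7.42-fold lower (change -2.89, SE 0.13; limma adjusted p = 2.51e-08), and between -3.04 and -2.83 after median centring or quantile normalization. The NAD kinase genes YEF1 and UTR1, whose products make NADP, rose by 1.67 (SE 0.10) and 0.76 (SE 0.07). IDP3, the peroxisomal NADP-dependent isocitrate dehydrogenase gene, rose by 1.07 (SE 0.12), and STB5, a transcription factor gene known for activating pathway genes under oxidative stress, by 0.57 (SE 0.08). These 4 had limma adjusted p between 1.23e-07 and 5.43e-05. YEF1, IDP3 and STB5 lie in the dimmest class, with a median change of 0.54. They ranked 70, 157 and 284 from the top of its 581 genes, so STB5 lay near that median. With normexp without control replicate 2 these genes were at 0.12, -0.26 and -0.07 and did not pass, while UTR1 was at 0.70. After quantile normalization STB5 was at 0.06 and did not pass (limma adjusted p = 0.457), while YEF1, IDP3 and UTR1 passed as higher.

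**Figure D5:**
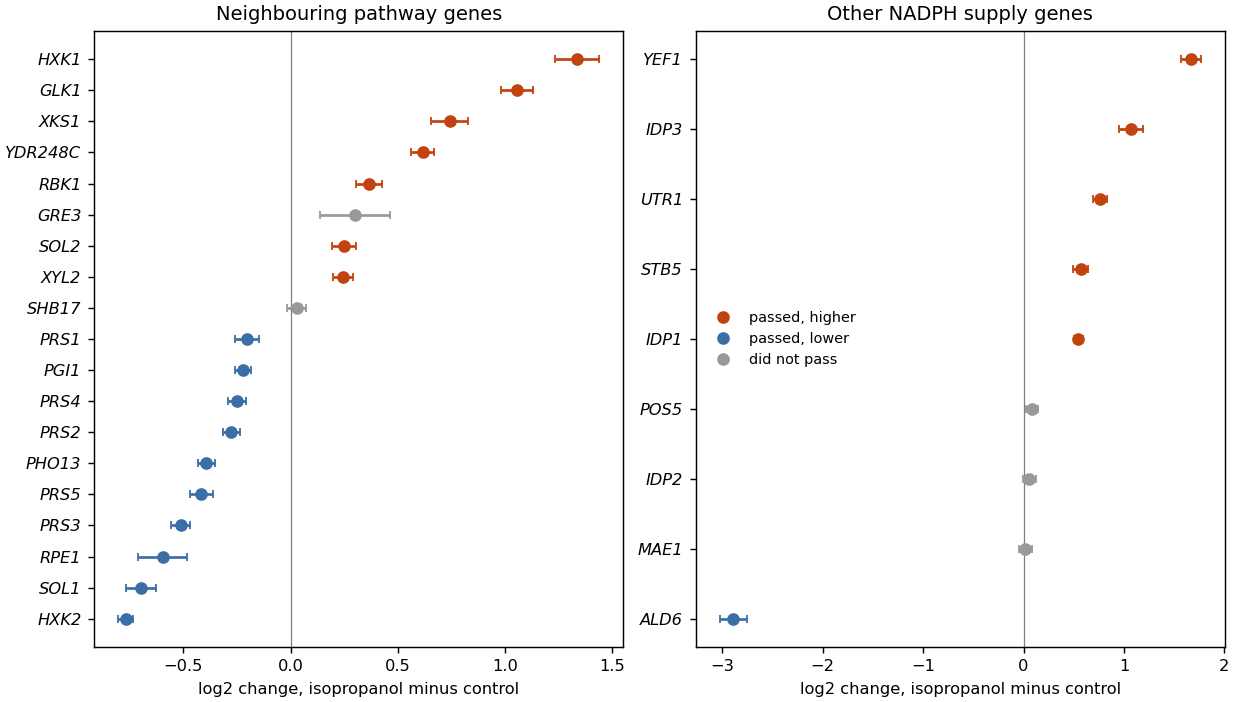
Log2 change (isopropanol minus control, horizontal axes) with its standard error for the 19 neighbouring pathway genes tested and the 9 other NADPH supply genes, coloured by whether they passed the test. HXK1 (1.34) and YEF1 (1.67) lie furthest to the right of their lists, and ALD6, at -2.89, furthest to the left.

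Other duplicated enzymes of sugar metabolism were set beside these pairs without a test. The first-named gene gained on the second by 2.10 (SE 0.13) for HXK1 over HXK2 and 2.09 (SE 0.10) for the glyceraldehyde phosphate dehydrogenase genes TDH1 over TDH3. The gain was 1.46 (SE 0.15) for the pyruvate kinase genes PYK2 over CDC19 and 1.21 (SE 0.06) for the phosphoglucomutase genes PGM2 over PGM1. In the last pair PGM1 changed by -1.04 and PGM2 by 0.16, which was -0.15 after quantile normalization. EMI2, a paralog of GLK1, went the other way, with a difference of -0.69 (SE 0.07), since GLK1 rose more. The PYK2 over CDC19 value was the least stable of these, at 0.66 after quantile normalization and 0.57 with normexp, where PYK2 did not pass (adjusted p = 0.279). With normexp without control replicate 2 the value was 0.90, and PYK2 passed at 0.63 (limma adjusted p = 0.00486). The shifts of all 4 pathway pairs lie between -0.69 and 2.10, the lowest and highest of these values, where only the EMI2 pair was below 0. The medians of the classes of like signal alone differ by 0.40 for HXK1 over HXK2, 0 for TDH1 over TDH3 and 0.71 for PYK2 over CDC19. For PGM2 over PGM1 they differ by 0.13, and for EMI2 over GLK1 by 0.16.

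Across the 8 arrays, the genes whose centred log2 values lay closest to those of a minor paralog were found by Euclidean distance. Closest to GND2 were OYE3 (distance 0.12), for an NADPH oxidoreductase, THI22 (0.14) and ATG1 (0.15). Closest to NQM1 were the chaperone gene SSE2 (0.14), DLD3 (0.14) and AXL1 (0.16). TKL2 was nearest to RRF1 (0.14), VNX1 (0.19) and SSD1 (0.20), and SOL4 to COX5B (0.21), MTC3 (0.24) and PFD1 (0.24). With 2 groups this likeness mostly reflects the size of the change.

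In the order of genes of RefSeq assembly R64, SOL4 and GND2 lie on the same chromosome with 7 protein-coding genes and 1 tRNA gene between them. This was looked up after the values of both had been seen. Of the 6 of those genes that were tested, ENO1, an enolase gene, rose by 1.30 (SE 0.04; limma adjusted p = 1.51e-09) and COQ6, of ubiquinone synthesis, by 0.63 (SE 0.04; 3.91e-07 adjusted). Both lie at the GND2 end, while MTM1, on the other side of GND2, was higher by 0.17 (SE 0.07). Of the 6 genes 2 were higher, against 47.6% of all genes tested. NOP19 had a change of -0.28 (SE 0.04; limma adjusted p = 0.000118), and RIE1, GCN5 and PUP2, at -0.07, -0.01 and 0.02, did not pass.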

How the data were processed

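Per the labels' protocols, Cy3-labelled RNA of 8 samples was read on single-colour Agilent arrays. Per the file headers, the authors' intensity values (processed, median and local background signals per spot) were extracted from the scans by Feature Extraction 9.5.3.1 (version 9 in the submitters' processing notes), whose headers list detrending statistics. The deposited series matrix holds log2 values relative to each array's 75th percentile (array medians -1.52 to -1.32). Spot flags, another kind of column, were used as deposited.

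Flagged and control spots were left out, duplicate spots averaged on the log2 scale, and each array's 75th percentile subtracted. A probe was kept where all its spots were well above background on every array of a group, with the brightest probe per gene. Names came from RefSeq R64 locus tags (5765 of 6256 probes). Coordinates are not given, since the files use an older build (sacCer1). Genes were tested in R 4.3.3 by limma 3.58.1, and p-values were adjusted by Benjamini-Hochberg over all 5816, and paralog pairs with exact permutation tests. Intervals are 95%. Array number (4 per group) limits the precision. In simulated data with independent normal noise, 50 of these 5816 genes were changed at each fold size. There the fit recovered 56% of 1.15-fold and 96% of 1.5-fold changes. Far fewer genes changed there than in these data, where 77.8% passed, so the shares may not carry over.

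Named genes are the 10 members, the 5 strongest changes that passed in each list, all genes of the other isoenzyme pairs and the 3 nearest genes to each minor paralog. Members and lists were chosen with earlier results of these data known. Alternatives were other scalings, normexp (offset 50), filters, the series matrix, a variance trend, a replicate block and leaving out each array. Normexp started from the median and local background signals in place of the processed signal. Arrays of the same replicate number were not treated as pairs outside the replicate block. Their deviations from the group means correlated at -0.16 to 0.04, which cannot show whether the cultures were paired.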

Additional observations from a re-analysis of the deposited data

Results flagged for a closer look

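Among 28 groups of 4 values checked (10 genes and 4 pair ratios, in 2 groups of arrays each), 3 held an array far from the others, where chance alone flags about 1 in 20 groups. For ZWF1, control replicate 4 (-2.03) lay apart from the other control arrays, with a gap of 0.914 of the group's range. For GND1, isopropanol replicate 4 (3.16) lay below the others with a gap of 0.865 of the range, and control replicate 2 (3.50) above the others with a gap of 0.861 of a range that is itself narrow. Leaving out single arrays kept ZWF1 between 0.34 and 0.49 and GND1 between -0.21 and -0.15, and both passed each time.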

How the results depend on the processing

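Outside the spike-in scale, SOL3, RKI1, TAL1 and NQM1 kept their direction and passed in all 18 alternatives, and ZWF1 and GND2 in 17, the exception being normexp (0.24 and 0.50). With normexp 2451 genes changed, 1053 of them higher, against 4524 and 2771 on the reported scale, and 2 of the 10 genes were higher. TKL2 was then at -0.47, and the pair differences were 0.74 (GND), 0.56 (transaldolase), -0.32 (TKL) and -0.29 (SOL), with exact permutation p = 0.0571, 0.114, 0.571 and 0.343. With control replicate 2 left out as well, a setting chosen after seeing the data, 1761 genes were higher, TKL2 was at -0.12, SOL4 passed at -0.38, and the pair differences were 0.96, 0.79, 0.040 and -0.041 in the same order. After quantile normalization SOL4 passed at -0.70, GND1 was at 0.065, TKL1 at 0.18 and TKL2 at -0.17. The GND and transaldolase differences were then 0.72 and 0.80, and the TKL and SOL differences -0.35 and -0.32. The contrast of the GND and transaldolase pairs turned to -0.074 (with normexp it passed at 0.18, exact permutation p = 0.0286), and that of the TKL and SOL pairs to -0.027 (-0.032 with normexp). After median centring SOL4 passed at -0.38, and TKL2 at 0.20 did not. The cause of these shifts was not tested.

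On the spike-in scale 4525 genes were higher and 19 lower, with 8 of the 10 genes higher and 0 lower (by limma; at 75th percentile scaling 4 were lower). SOL3 was at 0.76, SOL4 at 0.94, GND1 at 0.97, RKI1 at 0.54 and TKL1 at 0.96. Without isopropanol replicate 1, 4868 genes were higher and 77 lower, again with 8 and 0 of the 10, and these genes were at 0.33, 0.53, 0.55, 0.13 and 0.59.

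Leaving out 1 array at a time, SOL4 ran from -0.33 to -0.16, and every other gene kept its call. Pair differences ran from 1.23 to 1.33 (GND), 1.16 to 1.25 (transaldolase), 0.47 to 0.63 (TKL) and 0.064 to 0.25 (SOL). By the exact permutation test over the 35 assignments of 3 against 4 arrays, a test chosen after seeing the data, the GND and transaldolase pairs passed in all 8 cases, the TKL pair in 7 and the SOL pair in 0 (p from 0.229 to 0.8). With the replicate block 4390 genes changed, and every call on the 10 genes was kept. Each of the 10 genes has 1 probe, so averaging probes changed none of them.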
